A study of Homo sapiens with 3 samples.

Results

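The nuclear lamina and the inner nuclear membrane were followed here through 10 genes, LMNA, LMNB1, LMNB2, LBR, EMD, TMPO, BANF1, SUN1, SUN2 and LEMD3, taken by their symbols from a table of 57736 genes. Each symbol stood in 1 row, and all 10 were among the 14524 genes with enough counts to be tested. RNA was sequenced from TOV21G, a human ovarian clear cell carcinoma line with a mutated ARID1A gene, whose product is a subunit of the SWI/SNF chromatin remodeller. A single library came from cells in which a lentiviral hairpin called shRNA 1 depleted HDAC2, a class I histone deacetylase, a further library came from cells with a hairpin called shRNA 2 (HDAC2 knockdown, n = 2 in all), and the comparison library came from HDAC2 wild-type cells (WT, n = 1). All groups share the ARID1A mutation, and the labels do not say whether WT cells carried a control virus, so HDAC2 loss and transduction cannot be told apart. Nothing in the labels names separate cultures within a hairpin. Every p-value therefore rests on the spread between 2 hairpin libraries, which may be technical, with the WT library taken to vary by the same amount. That spread is drawn mostly from all genes together, since each gene has 1 residual degree of freedom against a prior of 18.9.

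As background, the lamina is a meshwork of intermediate filaments beneath the inner nuclear membrane. A-type lamins come from LMNA, and B-type lamins, which stay bound to the membrane through a farnesyl group, come from LMNB1 and LMNB2. LBR, the lamin B receptor, and proteins with a LEM domain (EMD, TMPO, LEMD3) fasten chromatin to this layer, the LEM proteins through the DNA-bridging protein BANF1. The proteins of SUN1 and SUN2 cross the inner membrane and couple the lamina to the cytoskeleton. Loss of LMNB1 is a widely used mark of senescent cells.

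HDAC2 was lower in both knockdown libraries, at 33.4 and 51.6 CPM (counts scaled to a common library size with TMM factors) with shRNA 1 and shRNA 2, against 105 CPM in WT. Its log2 change was −1.31 ± 0.20 (SE; adjusted p = 4.82e-04, edgeR quasi-likelihood test). Library totals were 11398791 and 11225492 counts for the hairpins and 10138479 counts for WT. The 4 clear cell carcinoma genes listed summed to 1253 and 1099 CPM in the knockdown libraries and 1186 CPM in WT, although NAPSA had 1 to 4 counts. Most of that sum was ANXA4, at 779 and 770 CPM with shRNA 1 and shRNA 2 and 703 CPM in WT. Among epithelial genes, KRT18 stood at 431 and 481 CPM in knockdown and 475 CPM in WT, and KRT8 at 54.1 and 64.4 CPM against 64.4 CPM. EPCAM was low, at 7.50 and 10.8 CPM against 6.92 CPM, and CDH1 had 12 and 12 counts against 6. Markers of leukocytes, endothelium and fibroblasts summed to 24.6 and 38.6 CPM in knockdown cells and 15.9 CPM in WT. CD3E was at 0 in every library, and PTPRC, CD68 and VWF had 0 to 2 counts. Most of the sum was COL1A2, a collagen gene, with 220 and 335 counts in knockdown cells and 87 in WT. COL1A2 rose, with a log2 change of 1.48 ± 0.27 (SE, adjusted p = 0.00235, edgeR quasi-likelihood test). The other fibroblast genes did not pass: COL1A1 had 54 and 89 counts against 67 in WT, and DCN 4 and 13 against 1. The part of these cell markers in the results was not tested.

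In HDAC2 knockdown cells 5 of the 10 genes fell, the B-type lamin genes LMNB1 and LMNB2, the lamin B receptor gene LBR, EMD and SUN2, to between 0.530 and 0.678 of their WT level. The other 5, LMNA, TMPO, BANF1, SUN1 and LEMD3, did not pass the test (adjusted p below 0.05), and 0 rose. Among all genes tested 7.72% passed, 3.76% falling and 3.96% rising. The 10 genes were chosen with earlier results of these data known, so these shares describe them and do not test them as a set. The median log2 change was −0.54 over the 10 genes and 0.01 over all genes tested. Together the 10 genes took 0.0697% and 0.0704% of all counts with shRNA 1 and shRNA 2, against 0.0917% in WT. Without a filter on low counts 0 of all genes passed, HDAC2 included. In that fit 6 of the 10 genes and 2486 of all 23698 genes had an unadjusted p below 0.05. DESeq2's Wald test called 1 of the 10, LMNB2. In bulk RNA of this kind, fewer cells with a transcript and less of it per cell cannot be told apart.

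**Figure D1:**
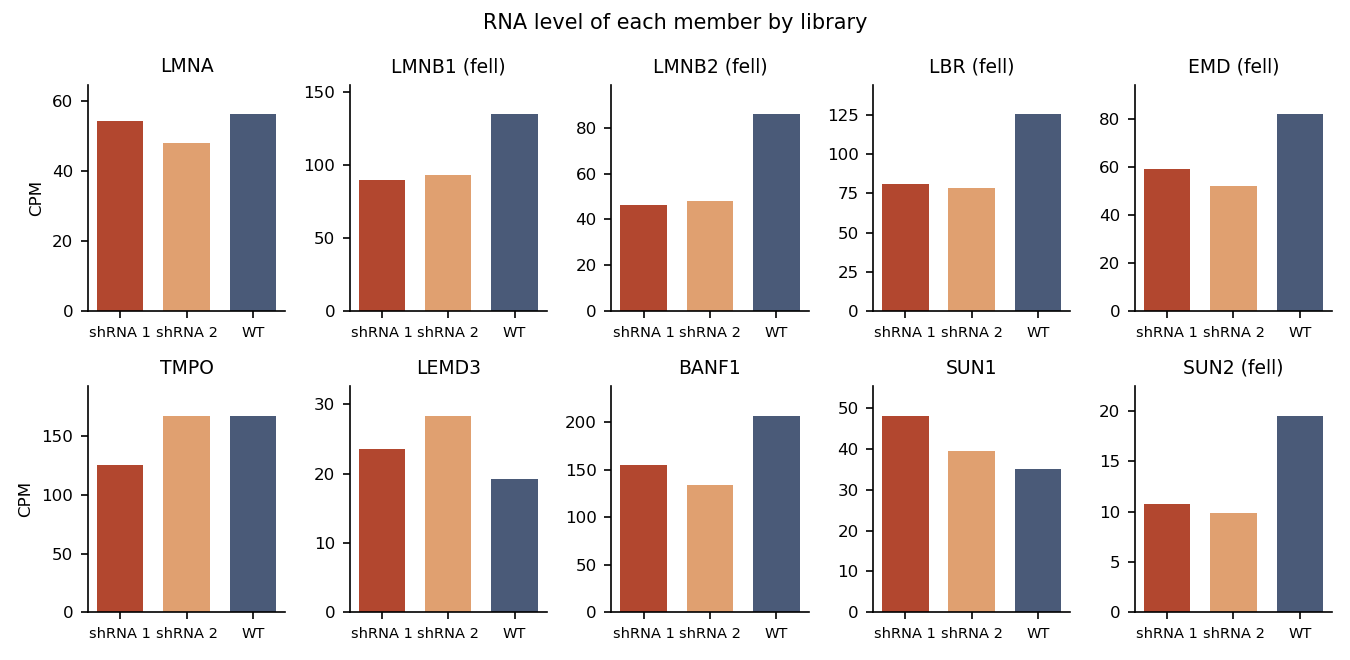
RNA level of the 10 genes, in TMM-scaled CPM on axes that start at 0, in the shRNA 1, shRNA 2 and WT libraries, 1 bar per library. LMNA, LMNB1, LMNB2, LBR, EMD, BANF1 and SUN2 are below WT with both hairpins, LEMD3 and SUN1 are above it with both, and TMPO reaches 126 CPM with shRNA 1 and 167 CPM with shRNA 2, against 167 CPM in WT.

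Promoter windows are printed for members that fell and that hold a searched motif, since 5 members fell together and proliferation genes are often driven by these elements. RefSeq windows (GRCh38.p14, 250 bases before to 50 after a start) were found for 9 genes and 15 starts. Searched on both strands were the E2F motifs TTTCCCGC or TTTGGCGC or TTTCGCGC, the CHR motifs TTTGAA and TTCGAA (read by the DREAM and MYBL2-MuvB complexes) and CCAAT, read by NF-Y. Of all 35116 windows of this length, 2.74% held an E2F motif, 16.4% a CHR motif and 34.6% a CCAAT. A match is a string of letters, not a measured site. An E2F motif was found in the windows of LMNA and LEMD3, which did not pass the test, and in no window of a gene that fell. CHR motifs were in the windows of 2 genes, LMNB2 and SUN2, in 1 window each among the 15, beside 16.4% of all windows. Both genes fell, but so did LMNB1, LBR and EMD, whose windows held no CHR motif. A link between motifs and changes was not tested. CCAAT was in 7 of the 15 windows, those of 6 genes, 3 of which fell. The 2 windows of TMPO overlap and hold the same CCAAT sites.

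Among the lamins, both B-type genes fell, whereas the A-type gene did not pass the test. LMNB2 (ENSG00000176619; GENCODE 29, GRCh38, chromosome 19 from 2427638 to 2456996, minus strand) had 530 and 545 counts with shRNA 1 and shRNA 2, against 858 in WT, or 46.2 and 48.2 CPM against 86.1 CPM. Both hairpin libraries were near each other and below WT. Its log2 change was −0.87 ± 0.17 (SE; adjusted p = 0.00323, edgeR quasi-likelihood test), 0.549 of WT. LMNB1 (ENSG00000113368; chromosome 5 from 126776623 to 126837020, plus strand) had 1031 and 1049 counts with shRNA 1 and shRNA 2, against 1344 in WT, or 89.9 and 92.8 CPM against 135 CPM. Again the hairpins differed little, at 66.7% and 68.8% of WT. The log2 change of LMNB1 was −0.56 ± 0.17 (SE; adjusted p = 0.0431, edgeR quasi-likelihood test), just inside the threshold, and the call was lost with the trend along transcript GC content taken out (−0.48, adjusted p = 0.0816) as well as by the DESeq2 Wald test (adjusted p = 0.152).

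The LMNB2 window (chr19:2456910-2457209, minus strand) holds TTTGAA at base −246, and the LMNB1 window at its downstream start (chr5:126776886-126777185, plus strand) holds CCAAT on the opposite strand, read as ATTGG, at base −138. Capitals mark the motifs, and bases are counted from the start, with negative numbers before it. The upstream LMNB1 start has no motif of the search in its window.
LMNB2: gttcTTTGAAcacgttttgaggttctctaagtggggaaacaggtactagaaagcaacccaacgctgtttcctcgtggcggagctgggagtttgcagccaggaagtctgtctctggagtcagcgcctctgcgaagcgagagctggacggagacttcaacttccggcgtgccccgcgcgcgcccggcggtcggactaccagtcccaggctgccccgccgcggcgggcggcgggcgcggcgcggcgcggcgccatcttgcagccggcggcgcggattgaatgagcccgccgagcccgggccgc
LMNB1: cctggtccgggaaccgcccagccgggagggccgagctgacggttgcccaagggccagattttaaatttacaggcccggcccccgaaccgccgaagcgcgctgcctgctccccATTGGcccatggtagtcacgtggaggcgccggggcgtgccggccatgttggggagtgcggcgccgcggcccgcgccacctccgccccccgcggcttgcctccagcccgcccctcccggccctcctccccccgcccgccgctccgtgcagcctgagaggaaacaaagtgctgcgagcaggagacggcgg

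LMNA (ENSG00000160789; chromosome 1 from 156082573 to 156140089, plus strand) had 622 and 544 counts with shRNA 1 and shRNA 2, against 561 in WT, or 54.3 and 48.1 CPM against 56.3 CPM. The hairpin libraries lay at 96.4% and 85.5% of WT. The log2 change of −0.14 ± 0.18 (SE; adjusted p = 0.691, edgeR quasi-likelihood test) did not pass, and it turned to 0.13 with the GC trend removed. Counts are per gene, so lamin A and lamin C, which are splice forms of LMNA, are not told apart.

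Shares among the lamin counts compare genes within a library, so no scaling between libraries touches them. LMNA made up 28.5% of lamin counts with shRNA 1 (95% Wilson interval 26.6 to 30.4) and 25.4% with shRNA 2 (23.6 to 27.3), against 20.3% in WT (18.8 to 21.8). LMNB2 made up 24.3% (22.5 to 26.1) and 25.5% (23.7 to 27.4) with shRNA 1 and shRNA 2, against 31.1% (29.4 to 32.8) in WT. The intervals of both hairpins lay above that of WT for LMNA and below it for LMNB2. LMNB1 took 47.2% and 49.1% in the knockdown libraries and 48.6% in WT. These intervals cover counting error only, and no test of the shares was run. LMNA and LMNB2 have nearly the same transcript GC content, 61.5% and 61.4%, and LMNB1 has 51.1%.

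**Figure D2:**
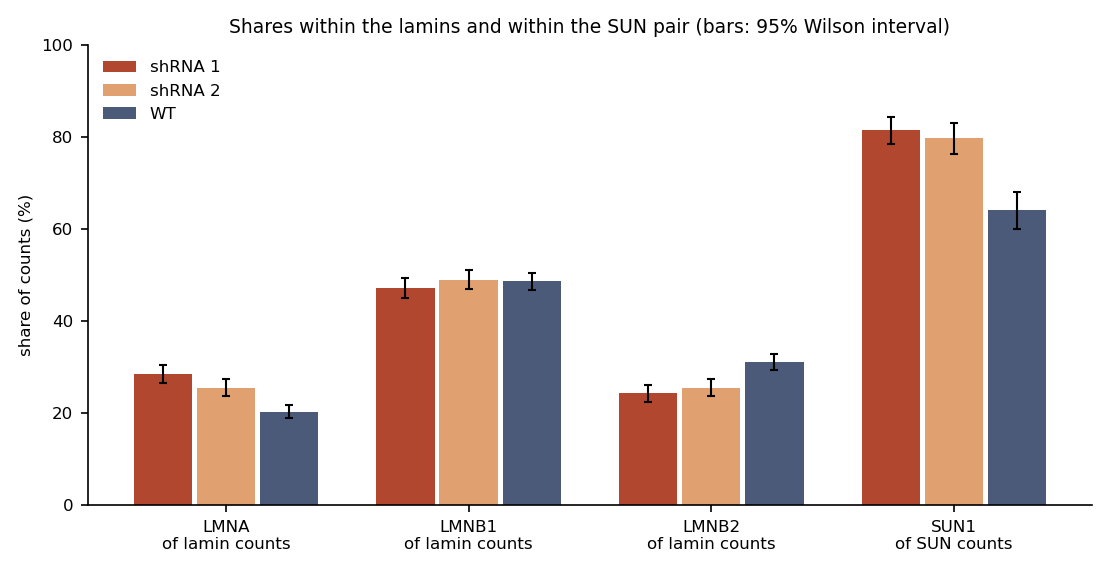
Share of counts within each library, in percent, for the 3 lamin genes among lamin counts and for SUN1 among SUN1 and SUN2 counts, with shRNA 1, shRNA 2 and WT bars and 95% Wilson intervals. LMNA stands higher and LMNB2 lower in the knockdown libraries than in WT, and SUN1 reaches 81.6% and 79.9% in the knockdown libraries and 64.2% in WT.

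LBR, which binds B-type lamins and heterochromatin and also acts as a sterol reductase, fell with both hairpins. LBR (ENSG00000143815; chromosome 1 from 225401502 to 225428925, minus strand) had 928 and 887 counts with shRNA 1 and shRNA 2, against 1253 in WT, or 81.0 and 78.4 CPM against 126 CPM. Both knockdown libraries stood at a similar distance below WT, 64.4% and 62.4% of it. The log2 change was −0.66 ± 0.17 (SE; adjusted p = 0.0192, edgeR quasi-likelihood test). LBR has the lowest transcript GC content of the 10 genes, 37.8%, and its change grew to −0.97 (adjusted p = 9.64e-04) with the GC trend removed. DESeq2's Wald test did not call it (adjusted p = 0.0782). Its promoter window held none of the searched strings.

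Of the LEM-domain genes, EMD fell, and TMPO and LEMD3 did not pass the test. EMD (ENSG00000102119; X chromosome from 154379197 to 154381523, plus strand), which encodes emerin, had 674 and 587 counts with shRNA 1 and shRNA 2, against 816 in WT, or 58.8 and 51.9 CPM against 81.9 CPM. Both hairpins were below WT, shRNA 2 the further. Its log2 change was −0.56 ± 0.17 (SE; adjusted p = 0.0464, edgeR quasi-likelihood test). This call had the highest adjusted p of the 5. It was lost with DESeq2 size factors (adjusted p = 0.0528), upper quartile scaling (0.0511), DESeq2's Wald test (0.235) and the GC trend removed (−0.31, adjusted p = 0.290). The EMD window (chrX:154379045-154379344, plus strand) holds CCAAT at bases −224 and −115, in capitals.
EMD: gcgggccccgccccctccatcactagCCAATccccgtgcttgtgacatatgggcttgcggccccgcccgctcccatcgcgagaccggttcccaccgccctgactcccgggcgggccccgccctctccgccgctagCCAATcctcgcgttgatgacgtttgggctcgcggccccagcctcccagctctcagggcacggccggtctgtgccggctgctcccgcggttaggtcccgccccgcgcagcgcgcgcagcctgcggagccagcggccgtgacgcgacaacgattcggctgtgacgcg

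TMPO (ENSG00000120802; chromosome 12 from 98515512 to 98550379, plus strand), the gene of the LAP2 proteins, had 1440 and 1893 counts with shRNA 1 and shRNA 2, against 1664 in WT, or 126 and 167 CPM against 167 CPM. It was below WT with shRNA 1 and level with it with shRNA 2, so the hairpins did not share a direction. The change between the hairpin libraries, shRNA 1 over shRNA 2, was −0.41 on the log2 scale, with a counting interval of −0.51 to −0.31 and no test. The log2 change of knockdown against WT was −0.19 ± 0.19 (SE; adjusted p = 0.589, edgeR quasi-likelihood test).

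LEMD3 (ENSG00000174106; chromosome 12 from 65169571 to 65248327, plus strand), which encodes MAN1, an inhibitor of SMAD signalling at the inner membrane, had 270 and 321 counts with shRNA 1 and shRNA 2, against 192 in WT, or 23.6 and 28.4 CPM against 19.3 CPM. It was above WT with both hairpins, at 122% and 147% of it. The log2 change of 0.43 ± 0.22 (SE; adjusted p = 0.235, edgeR quasi-likelihood test) did not pass. Of the summed counts of EMD, TMPO and LEMD3, LEMD3 held 11.3% (95% Wilson interval 10.1 to 12.7) and 11.5% (10.3 to 12.7) with shRNA 1 and shRNA 2, against 7.19% (6.27 to 8.23) in WT. EMD held 28.3% and 21.0% against 30.5%. TMPO held 60.4% and 67.6% against 62.3%, with the hairpins on opposite sides of WT. The intervals cover counting error only, and no share was tested.

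BANF1 (ENSG00000175334; chromosome 11 from 66002079 to 66004149, plus strand), whose small protein links LEM proteins to DNA, had 1778 and 1514 counts with shRNA 1 and shRNA 2, against 2064 in WT, or 155 and 134 CPM against 207 CPM. Both hairpin libraries were below WT, at 74.9% and 64.7% of it. The log2 change was −0.52 ± 0.17 (SE; adjusted p = 0.0699, edgeR quasi-likelihood test), just outside the threshold.

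**Figure D3:**
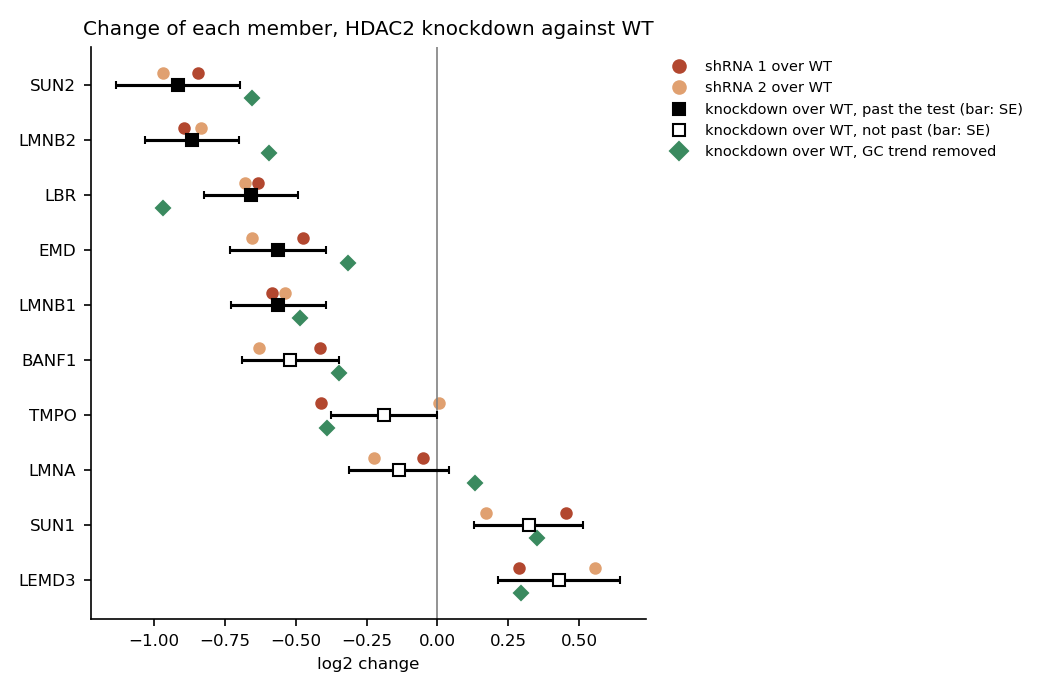
Log2 change of each gene against WT: shRNA 1 and shRNA 2 alone (circles, no test), both together with the SE as bar (squares, filled where past the test) and both together with the GC trend removed (diamonds). The hairpins lie close together for LMNB1, LMNB2 and LBR and apart for TMPO, and removing the trend moves LBR to −0.97 and EMD to −0.31.

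Of the SUN genes, SUN2 fell and SUN1 did not pass the test. SUN2 (ENSG00000100242; chromosome 22 from 38734725 to 38794143, minus strand) had 124 and 112 counts with shRNA 1 and shRNA 2, against 195 in WT, or 10.8 and 9.90 CPM against 19.6 CPM. Both hairpin libraries were well below WT, at 55.3% and 50.6% of it. The log2 change was −0.92 ± 0.22 (SE; adjusted p = 0.0136, edgeR quasi-likelihood test), in this fit the furthest below 0 of the 10 genes. SUN1 (ENSG00000164828; chromosome 7 from 816615 to 896435, plus strand) had 551 and 446 counts with shRNA 1 and shRNA 2, against 349 in WT, or 48.1 and 39.4 CPM against 35.0 CPM. It was above WT with both hairpins, but its log2 change of 0.32 ± 0.19 (SE; adjusted p = 0.330, edgeR quasi-likelihood test) did not pass. Of the counts of both genes, SUN1 held 81.6% with shRNA 1 (95% Wilson interval 78.5 to 84.4) and 79.9% with shRNA 2 (76.4 to 83.0), against 64.2% in WT (60.04 to 68.1). These intervals cover counting error only, and the share was not tested. Transcript GC content differs within the pair, 49.3% for SUN1 and 60.8% for SUN2.

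Both SUN genes overlap neighbours. SUN1 exons overlap GET4 on the same strand over 1842 bases, and 13.9% of its 75-base sequences occur there too. With GET4 counts added the log2 change of SUN1 was 0.21. GET4 had 213 and 219 counts in the knockdown libraries and 192 in WT, and adding counts that differ so little shrinks the change by construction. SUN2 exons overlap GTPBP1 on the opposite strand over 680 bases, and the sources used here do not say whether strand was used in counting. The SUN2 call was lost with the GC trend removed (−0.65, adjusted p = 0.0722, edgeR quasi-likelihood test). SUN2 shares 3 sequences of read length, 0.0426% of its own, with DNAL4. A sum of both genes did not pass (−0.57, adjusted p = 0.0756, same test), but DNAL4 had 134 and 150 counts in the knockdown libraries and 144 in WT, and adding counts that differ so little shrinks the change by construction. Of the other members, LMNB2 shares 3.34% of its sequences with TIMM13 and BANF1 1.97% with the pseudogene BANF1P3. No other gene held a 75-base sequence of the remaining 6 in the same orientation, the only one searched. On the opposite strand, TMPO exons overlap TMPO-AS1 over 713 bases, and BANF1 exons overlap EIF1AD over 98 bases. TMPO-AS1 had 65 and 86 counts with shRNA 1 and shRNA 2, against 87 in WT.

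The SUN2 window (chr22:38755949-38756248, minus strand) at the most upstream start holds TTTGAA on the opposite strand, read as TTCAAA, at base −111, and CCAAT at bases −101 and −57. The windows at its other starts hold none of the strings.
SUN2: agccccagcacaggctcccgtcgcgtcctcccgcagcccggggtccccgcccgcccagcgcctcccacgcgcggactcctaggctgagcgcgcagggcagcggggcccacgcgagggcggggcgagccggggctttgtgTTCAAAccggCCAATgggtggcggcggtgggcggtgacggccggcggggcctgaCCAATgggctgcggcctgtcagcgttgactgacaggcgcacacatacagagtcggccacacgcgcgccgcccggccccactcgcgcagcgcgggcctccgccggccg

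Levels were compared between genes as CPM per kilobase of the longest transcript. BANF1 was highest in each library, at 134 and 116 with shRNA 1 and shRNA 2 and 179 in WT. EMD (42.6 and 37.6 in knockdown, 59.4 in WT) and TMPO (29.6 and 39.5 in knockdown, 39.4 in WT) followed, and their knockdown ranges overlap. LMNB1 (25.9 and 26.7 in knockdown, 38.8 in WT) and LBR (21.2 and 20.6 in knockdown, 33.0 in WT) came next. LMNA stood at 17.0 and 15.1 in knockdown and 17.6 in WT, and LMNB2 at 9.90 and 10.3 in knockdown and 18.4 in WT. LMNA thus ranked above LMNB2 with both hairpins and LMNB2 just above LMNA in WT, where 1 library gives no spread. SUN1 (10.7 and 8.79 in knockdown, 7.80 in WT) overlapped LMNB2 in knockdown cells. SUN2 (2.67 and 2.44 in knockdown, 4.82 in WT) and LEMD3 (4.94 and 5.96 in knockdown, 4.04 in WT) were lowest and exchanged places between the groups. With the mean length of the table's transcripts in place of the longest, TMPO ranked above EMD in every library, so that neighbouring ranks depend on the isoform length assumed.

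Transcript GC content moved with the changes over all genes. The median log2 change was 0.26 in the GC-poorest tertile of genes, −0.00064 in the middle tertile and −0.24 in the GC-richest tertile. In the same order, 1.27%, 3.36% and 6.67% of these genes fell, and 9.09%, 2.08% and 0.552% rose. LMNA, LMNB2, EMD, BANF1 and SUN2 belong to the GC-richest tertile, LMNB1 and SUN1 to the middle one and LBR, TMPO and LEMD3 to the GC-poorest. With the trend removed, 2 of the 10 genes fell, LBR and LMNB2 (−0.59, adjusted p = 0.0305, edgeR quasi-likelihood test). Their log2 changes were then −0.97 and −0.59, and those of SUN2, LMNB1, TMPO, BANF1 and EMD −0.65, −0.48, −0.39, −0.35 and −0.31. The source of the trend was not tested.

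**Figure D4:**
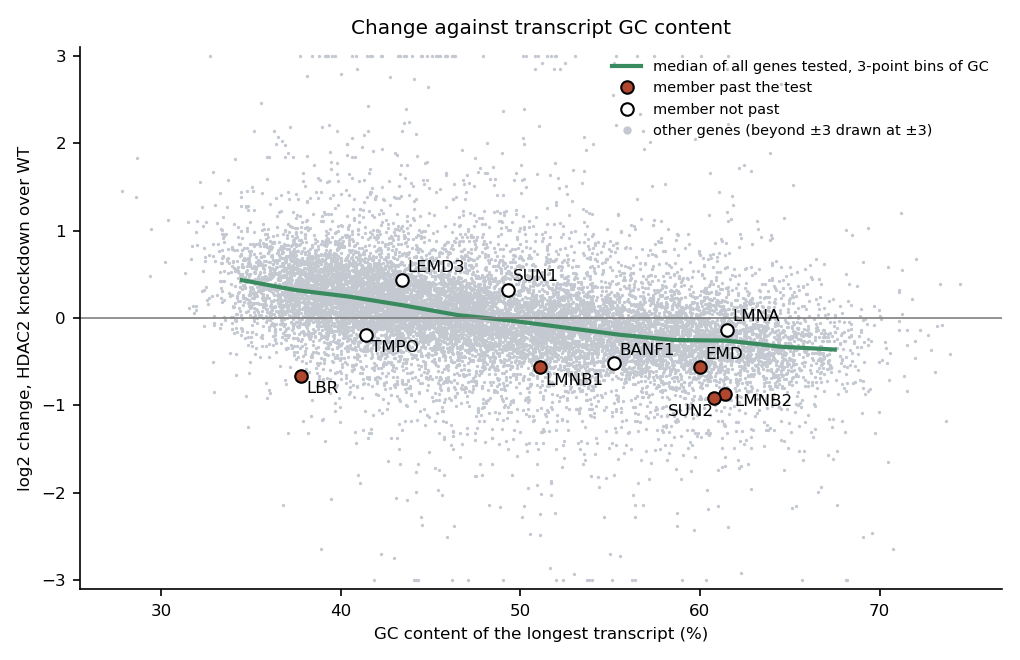
Log2 change of HDAC2 knockdown over WT against the GC content of the longest transcript, in percent, for all genes tested (grey; values beyond ±3 are drawn at the edge), with their median in bins of GC (line) and the 10 genes (filled where past the test). LBR lies far below the line at 37.8% GC, whereas LMNB2, SUN2 and EMD lie below it where the line itself is below 0.

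Proliferation genes fell in the same libraries. Of 10 markers 7 fell, against 3.76% of all genes tested, and no marker rose. The markers were chosen with earlier results of these data known, so this share is a description and no test of the list. The other 3, TOP2A, CDK1 and PCNA, failed the threshold. They stood at 62.1%, 67.9% and 63.2% of WT with shRNA 1 and at 88.5%, 100% and 78.2% with shRNA 2. The median log2 change of the 10 markers was −0.99. Their summed level was 1607 and 2004 CPM in the shRNA 1 and shRNA 2 libraries and 3252 CPM in WT. TK1, the thymidine kinase, had a log2 change of −1.48 and MCM5, a subunit of the replicative helicase, of −1.27 (adjusted p = 2.4e-05 and 1.60e-04, edgeR quasi-likelihood test). Transcript GC content was 62.8% for TK1 and 57% for MCM5, against 39.1%, 37% and 45.3% for TOP2A, CDK1 and PCNA. CCNB1 and BUB1, at 43.2% and 42.5%, were among the markers that fell. Values of the markers with the GC trend removed are not given here. The part of proliferation in the changes of the lamina genes was not tested.

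Other genes of the nuclear envelope seldom passed, near the background. Of 41 partner genes in 5 lists, 38 were tested: 4 passed, 2 in each direction, and their median log2 change was 0.03. Among 12 tested inner membrane genes outside the 10, NRM and TMEM201 fell, no gene rose and the other 10 failed the threshold (median −0.29). NRM, the gene of the multi-pass inner membrane protein nurim, had 147 and 168 counts with shRNA 1 and shRNA 2, against 276 in WT, and its log2 change was −1.0 ± 0.21 (SE; adjusted p = 0.00568, edgeR quasi-likelihood test). TMEM201, whose product SAMP1 is also found at the mitotic spindle, had 169 and 145 counts with shRNA 1 and shRNA 2, against 239 in WT, and a log2 change of −0.80 ± 0.21 (SE; adjusted p = 0.0254, same test), lost with the GC trend removed (adjusted p = 0.151). LEMD2, a further LEM protein that recruits the resealing machinery, had 172 and 143 counts with shRNA 1 and shRNA 2, against 163 in WT, and did not pass (log2 change −0.24 ± 0.22, SE; adjusted p = 0.555).

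Of 6 tested genes of the LINC complex and the torsins, TOR1B rose, no gene fell and 5 failed the threshold (median 0.24). TOR1B, an AAA+ ATPase of the envelope lumen, had 499 and 491 counts with shRNA 1 and shRNA 2, against 272 in WT, and its log2 change was 0.67 ± 0.19 (SE; adjusted p = 0.0345, edgeR quasi-likelihood test). It was above WT at 160% and 159% of it. TOR1A, its close relative, stood at 0.41 ± 0.18 (SE) without passing. The nesprin genes SYNE1 and SYNE2, partners of the SUN proteins, had log2 changes of 0.16 ± 0.21 (SE) and −0.11 ± 0.17 (SE), and SYNE3 and SYNE4 had at most 4 counts in any library.

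Among 5 genes of prelamin processing, ZMPSTE24 rose, no gene fell and 4 failed the threshold (median −0.04). ZMPSTE24, the protease that cuts the farnesylated tail from prelamin A, had 913 and 1106 counts with shRNA 1 and shRNA 2, against 574 in WT. Both hairpins were above WT, at 138% and 170% of it, and the log2 change was 0.62 ± 0.19 (SE; adjusted p = 0.0430, edgeR quasi-likelihood test). That call was lost with DESeq2 size factors (adjusted p = 0.0553), upper quartile scaling (0.0574), a minimum mean count of 50 (0.0547), the DESeq2 Wald test (0.179) and the GC trend removed (0.31, adjusted p = 0.333). The transferase subunit genes FNTA and FNTB changed by 0.31 ± 0.17 (SE) and −0.47 ± 0.17 (SE) without passing, and FNTB shares 39% of its sequences with another gene and is uncertain.

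None of the 8 genes of envelope resealing, the ESCRT-III group and its helpers, passed (edgeR quasi-likelihood test). Nor did any of the 7 genes of kinases and phosphatases of the lamina. The medians of both lists were 0.19 and 0.01, and the log2 changes ran from −0.29 to 0.44 and from −0.35 to 0.53. Of the 38 partner genes in all lists, 12 had an unadjusted p below 0.05 in the same fit, against 3420 of all 14524 genes tested. By the DESeq2 Wald test 0 partner genes passed. VRK1, the kinase that releases BANF1 from DNA, had 203 and 234 counts with shRNA 1 and shRNA 2, against 218 in WT (log2 change −0.19 ± 0.21, SE; adjusted p = 0.643).

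**Figure D5:**
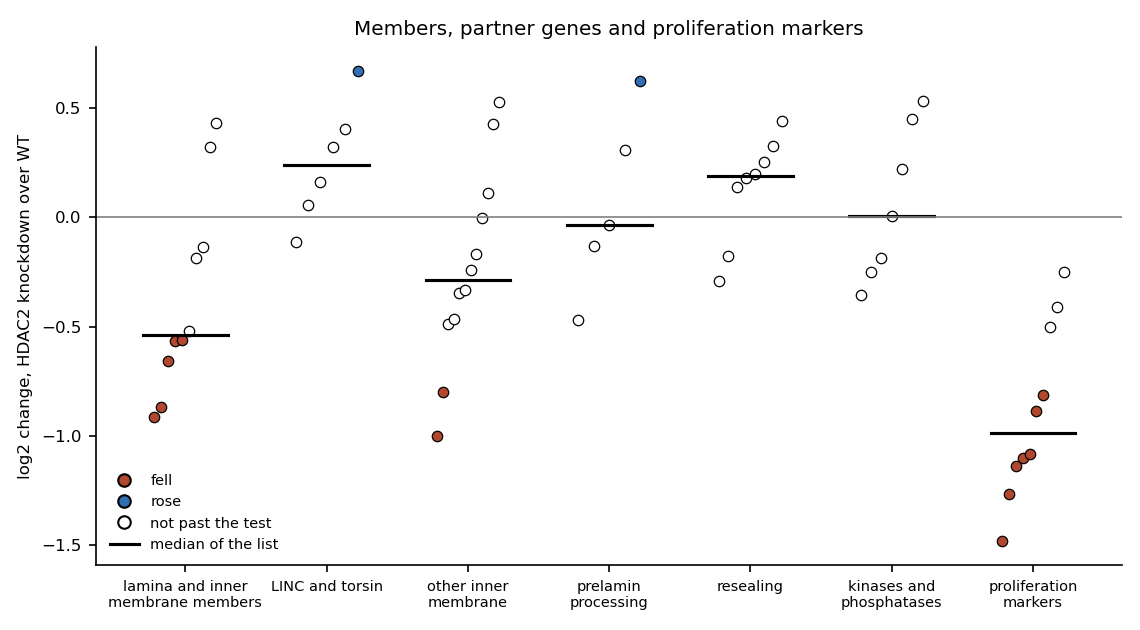
Log2 change of HDAC2 knockdown over WT for every tested gene of the 10 members, the 5 partner lists and the proliferation markers (points, coloured where past the test; lines are list medians). The medians of −0.54 for the members and −0.99 for the proliferation markers lie below those of the partner lists, which run from −0.29 to 0.24.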

How the data were processed

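The authors deposited a gene table of estimated counts, already whole numbers (rounding changed 0 values). RSEM 1.2.3, edgeR and hg19 are named in the submitters' processing notes; the sources used here give neither the strand setting nor each tool's step. Reads that match several genes are shared out by RSEM's model. Libraries were prepared with a ScriptSeq kit and read at 75 bases, per the labels' protocols.

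HDAC2 knockdown (n = 2, a library per hairpin) was compared with WT (n = 1) by edgeR 4.0.16 (R 4.3.3): filterByExpr, TMM, quasi-likelihood test, Benjamini-Hochberg adjustment over 14524 genes, threshold 0.05. There was 1 residual degree of freedom, with a prior of 18.9. Changes of single hairpins come from log2 CPM (prior count 2), untested. DESeq2 1.42.0 was an alternative. At 3 counts the floor is 0.262, 0.265 and 0.301 CPM for shRNA 1, shRNA 2 and WT.

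GENCODE 29 (GRCh38) gave positions, transcript lengths, GC content (97.2% of tested genes) and sequences of read length shared between genes; promoters came from RefSeq. The GC trend was a lowess fit (span 0.3) per library, taken as an offset. The table gives no coordinates, and protein sequences were not used here. The members and the gene lists were chosen with earlier results of these data known. Named genes are the 10 members, HDAC2, up to 2 passing genes per list and direction with the smallest p, and ZMPSTE24, VRK1 and LEMD2. Other genes (TOR1A, SYNE1, SYNE2, FNTA, FNTB, TOP2A, CDK1, PCNA, CCNB1, BUB1 and the cell type markers) were named after their values were seen.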

Additional observations from a re-analysis of the deposited data

How the results depend on the processing

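Of the tested values of the 10 genes under the alternatives, 74 kept direction and side of the threshold, 14 lost the call and 1 reversed, LMNA with the GC trend removed (0.13). Of the 10 genes, 5 passed with library size alone, a mean count of at least 50 and the likelihood ratio test. With DESeq2 size factors, upper quartile scaling and genes sharing sequence summed, 4 passed. With the GC trend removed 2 passed, and by DESeq2's Wald test 1, LMNB2. SUN2 had no adjusted p in the Wald test. With no filter on low counts 0 passed. All that passed fell. In the fit without a filter, 6 of the 10 genes and 2486 of 23698 genes had an unadjusted p below 0.05. Over all 14524 genes tested, 1121 passed in the main fit, 1463 with library size alone and 1252 by the likelihood ratio test. With DESeq2 size factors 1019 passed, and with upper quartile scaling 1023. A mean count of at least 50 gave 937 of 11206, and summing genes that share sequence gave 1120 of 14521. Without a filter 0 of all genes passed, 0 falling and 0 rising, nor did any partner gene. There 8 partner genes had an unadjusted p below 0.05, against 2486 of 23698 genes. The Wald test called 306 of all genes, 155 falling and 151 rising, and 0 partner genes. In the Wald test 7 partner genes had an unadjusted p below 0.05, against 1479 of 14524 genes. With the GC trend removed 736 genes passed, 467 falling and 269 rising, against 546 and 575, and with library size alone 868 rose. Partner genes that rose numbered 1 with DESeq2 size factors, upper quartile scaling, a mean count of at least 50 and the GC trend removed, 3 with library size alone. Why these differ was not tested, except that summing adds the neighbour's counts, which shrinks the changes of SUN1 and SUN2 by construction.

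Leaving out a hairpin leaves 1 library against 1, so those are values with no test and no count: the changes of the 5 genes that fell stayed below 0, from −0.97 (SUN2) to −0.48 (EMD). Leaving out WT leaves no comparison. No paired analysis was possible because the lone WT library has no hairpin number. Depth limits SUN2 most, with 112 to 195 counts a library, and 1 WT library limits every call.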
